A study of Mus musculus with 16 samples.

Results

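The DNAJ family, also called HSP40 or J-domain proteins, was followed in the pigmented mouse melanoma line B16-F10 24 hours after an antibody was added. Its members were taken as every gene of the deposited table whose symbol is Dnaja, Dnajb or Dnajc followed by a number. That gave 43 genes of 55414, with no symbol repeated, and 39 of them had enough reads to be tested. All groups shared the wild-type line and its serum-containing medium, and the antibody defined the group. Mel321-31 and Mel322-34 each had 4 libraries, Mel321-35 had 3, and the isotype control MGO.53 had 4. The series title describes the Mel antibodies as decoys aimed at extracellular HSP70, and its design text asks which genes go up or down with each one. None of the sources used here gives the antibody concentration.

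HSP70 chaperones bind unfolded stretches of protein in a cycle of ATP hydrolysis, and J-domain proteins start that cycle: their J domain, with its His-Pro-Asp motif, stimulates the HSP70 ATPase. Class A and B members also bind clients themselves, while class C members carry the J domain on otherwise unrelated proteins that bring HSP70 to a ribosome, a membrane or an endosome. Nucleotide exchange factors then release the client. The family is spread over the cytosol, the endoplasmic reticulum and the mitochondrion, and its results are given in that order.

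Levels are counts scaled to a library total of 1000000 (CPM) with TMM scaling, which adjusts for differences in RNA composition between libraries. Library totals ran from 19446531 to 37957845 counts, and the summed family made up 0.272 to 0.286% of them. Mel321-35 replicate 1 is the sole library of batch 2, so batch and antibody cannot be told apart for it, and the tests were run on batch 1 alone (14 libraries, 2 of them Mel321-35). The counts used here hold no values for Mel321-35 replicate 2, so it was not analysed. All 8 melanocyte markers were present in every group, with summed levels of 29493 to 30768 CPM over the groups and batches. The macrophage markers Adgre1 and Itgam, the endothelial Cdh5 and the epithelial Epcam were at 0 in every library. A mean of at least 1 CPM was reached by 2 of 5 macrophage, 2 of 5 fibroblast and 4 of 7 epithelial markers. No T cell or endothelial marker reached it. Summed macrophage, fibroblast, T cell and endothelial lists stayed at or under 21.3, 11.2, 0.191 and 0.271 CPM. The 7 epithelial genes summed to 7.56 to 18.5 CPM with Mel322-34, 9.62 to 16.7 CPM with Mel321-35 in batch 1 and 1.11 CPM in batch 2. Their summed level was lower with Mel321-31 (5.41 to 9.40 CPM) than with MGO.53 (13.8 to 24.1 CPM). Whether that difference plays a part in any DNAJ value was not tested.

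Scaled to the length of each gene's longest annotated transcript, the family spanned a wide range of abundance. Dnajb11, the soluble partner of the luminal HSP70 in the endoplasmic reticulum, stood highest at 96.3 ± 4.55 CPM per kilobase (SD over 15 libraries). It was followed by the cytosolic class A protein Dnaja2 at 86.6 ± 3.51 and by Dnajc7, which links HSP70 to HSP90, at 79.7 ± 3.26 CPM per kilobase. Ranges of these top members overlapped from each to the next, and all lay above the range of the histone chaperone Dnajc9 at 55.6 ± 3.37 CPM per kilobase. The order depends on the length used: per kilobase of all annotated exons together, Dnaja2 led at 85.0 CPM, followed by Dnajb11 at 74.8 and Dnajc3 at 47.2, and Dnajc7 and Dnajc9 were level at 38.2 CPM each. By longest transcript, the farnesylated cytosolic Dnaja1 stood at 32.2 ± 1.20 CPM per kilobase. The classical heat-inducible HSP40, Dnajb1, stood at 18.7 ± 1.03, and its close relative Dnajb4 at 5.31 ± 0.512 CPM per kilobase. Of the 38 neighbouring pairs in the order of levels, 32 had overlapping ranges over the 15 libraries, so most of the order is not resolved. The lowest tested members were Dnaja4 at 0.235 ± 0.141 and the testis-enriched Dnajb13 at 0.181 ± 0.0868 CPM per kilobase.

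**Figure D1:**
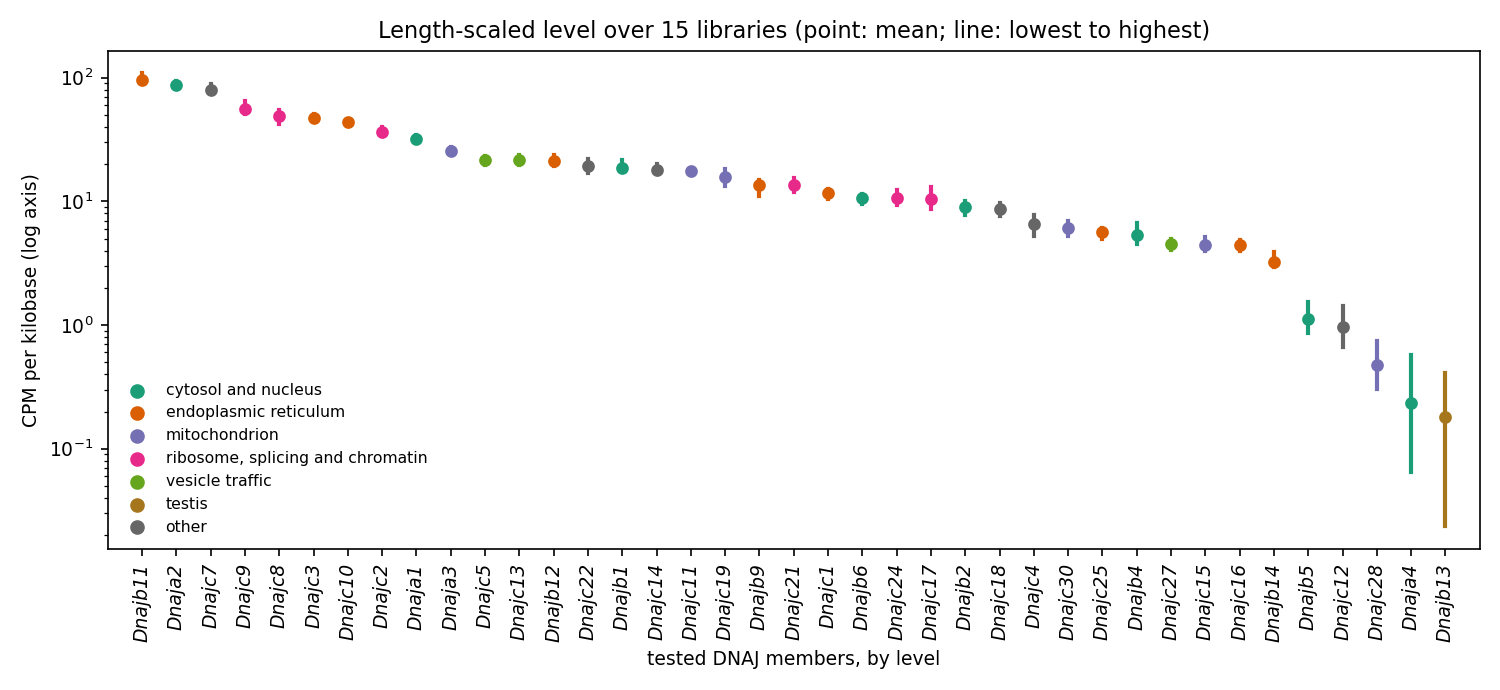
Length-scaled level of the 39 tested DNAJ members over the 15 libraries, in CPM per kilobase of the longest transcript on a log axis, where points are means, lines run from the lowest to the highest library, and colours mark location or job. On this length scale Dnajb11, Dnaja2 and Dnajc7 lead the order, and Dnaja4 and Dnajb13 end it.

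Among the 4 members not tested, 3 belong to the testis group. Dnajb7 and Dnajb8 had 0 counts in all 15 libraries. Dnajb3 had 7 counts in all, 6 of them in Mel322-34 replicate 2. The brain auxilin Dnajc6, which helps strip clathrin from vesicles, had 57 counts, with 0 to 13 in a library.

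Against MGO.53, the family as a whole moved little. With Mel321-31, 0 of 39 members passed an adjusted p under 0.05 (edgeR quasi-likelihood test, adjusted over 14633 genes), beside 3.53% of all genes tested (1.41% higher and 2.13% lower). At an unadjusted p under 0.05 there were 5 members, 4 higher and 1 lower, beside 17.8% of all genes. DESeq2 and limma-voom also called 0 members, with 5 and 6 at an unadjusted p under 0.05. With Mel322-34, 1 member passed, the endosomal Dnajc13, which was higher, beside 4.03% of genes called higher, 2.84% called lower and 6.87% called in all, and 6 members had an unadjusted p under 0.05 (22.2% of all genes). With Mel321-35, 1 member passed, the cytosolic Dnajb4, also higher, beside 0.0342% of genes called higher, 0.00683% called lower and 0.041% called in all, and 4 members had an unadjusted p under 0.05 (10.5% of all genes). The 3 comparisons share the MGO.53 libraries, so they are not independent of each other.

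Most members were measured closely enough to bound their change. The 95% interval of the fold change lay inside a 1.25-fold change in either direction for 34 of 39 members with Mel321-31, 33 with Mel322-34 and 30 with Mel321-35. Within a 1.5-fold change lay 35, 36 and 36. Median log2 fold changes of the members were 0.047, 0.013 and 0.051, beside -0.0014, -0.0011 and -0.0012 for all genes. With the trend on transcript length removed, the Mel321-31 median was 0.026 (0.0018 for all genes), and with upper quartile scaling the Mel322-34 median was 0.0022 (-0.012 for all genes). Members with a positive estimate numbered 26, 23 and 27 of 39, where 49.6, 49.7 and 49.7% of all genes were positive. The median size of the change regardless of sign was 0.068, 0.068 and 0.061, below the 0.087, 0.10 and 0.091 of all genes. These medians carry no test, and genes of high count vary less.

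The summed level of the family was 2734 ± 15.5 CPM with MGO.53, 2809 ± 8.96 with Mel321-31 and 2789 ± 37.0 CPM with Mel322-34 (SD, n = 4 each). Both batch 1 libraries of Mel321-35 held 2801 and 2850 CPM. Every Mel321-31 and Mel321-35 library lay above the MGO.53 range of 2718 to 2755 CPM, while Mel322-34 overlapped it with a lowest value of 2737 CPM. In bulk RNA, a change in the share of cells that express a gene and a change in its RNA per cell cannot be told apart.

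**Figure D2:**
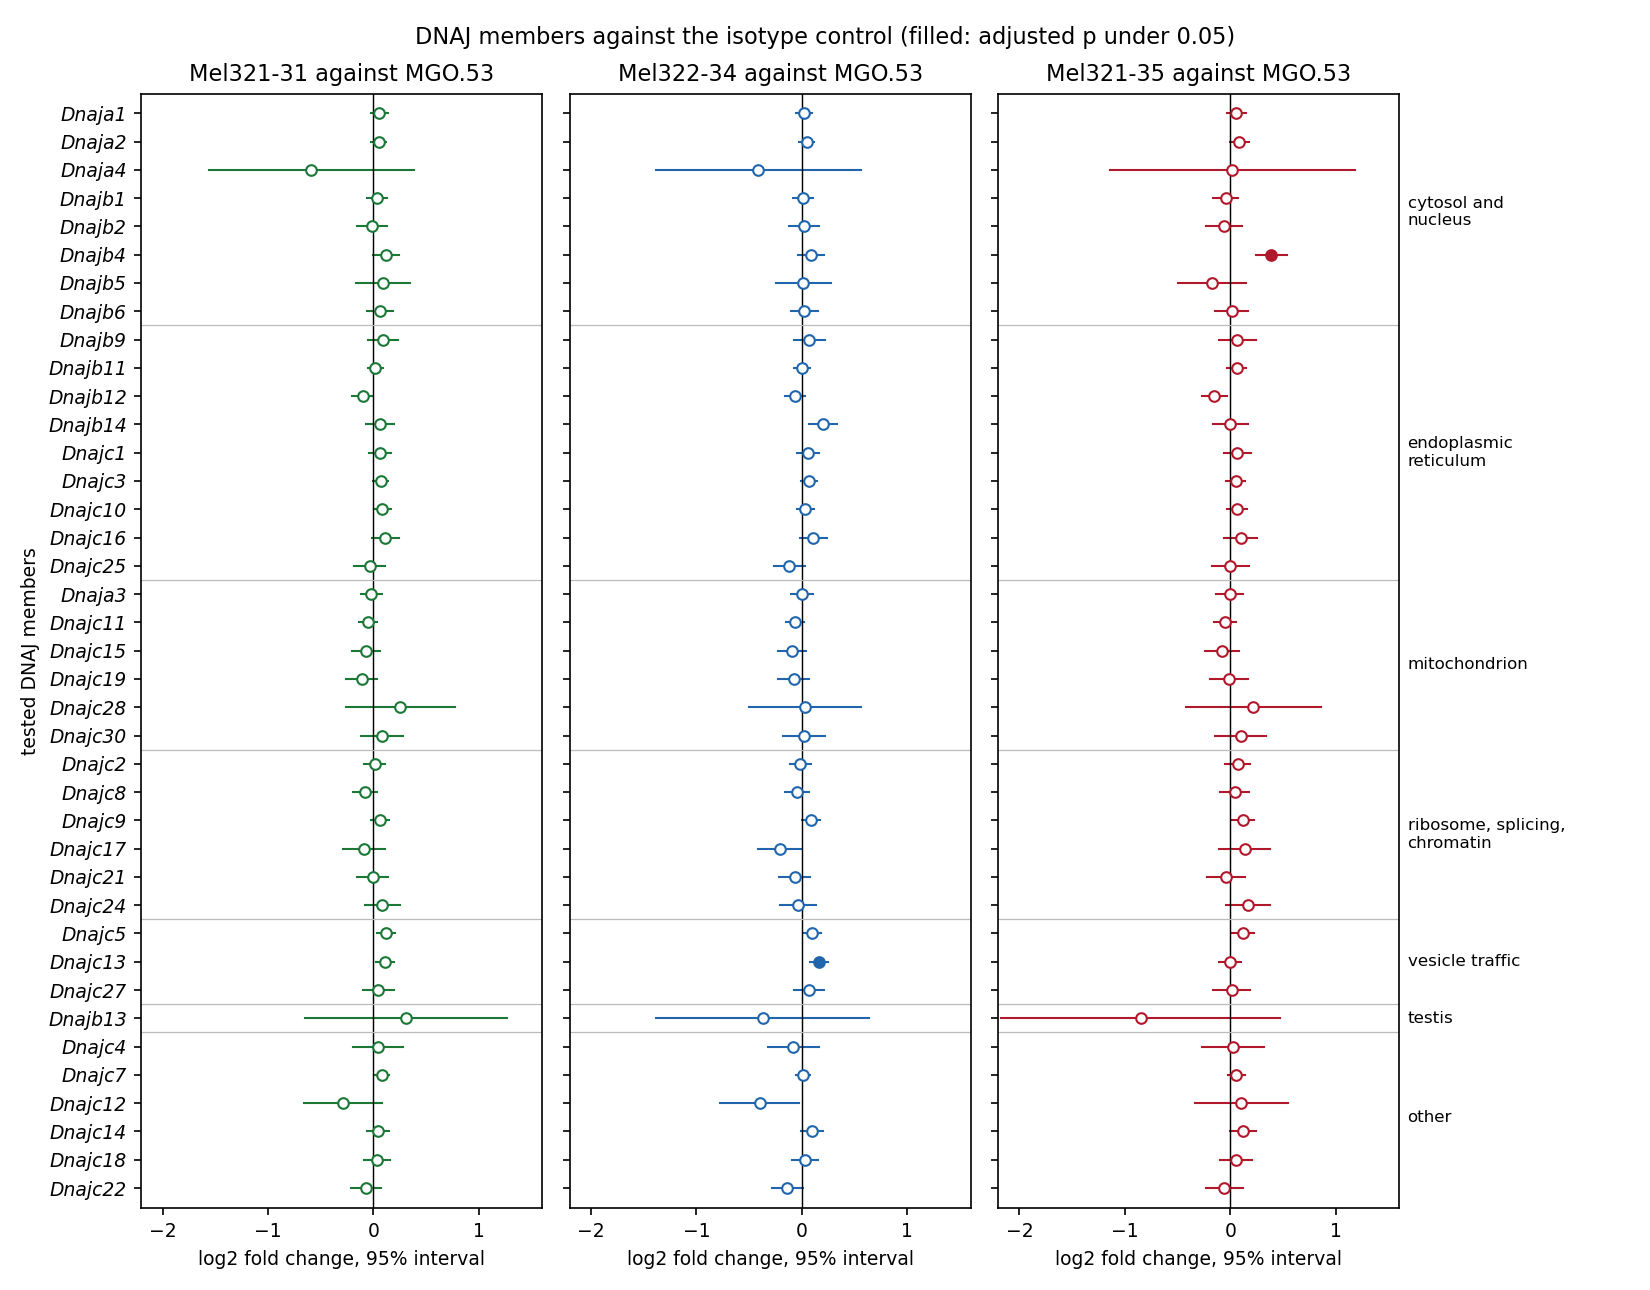
Log2 fold change of the 39 tested members against MGO.53, with 95% intervals, for Mel321-31, Mel322-34 and Mel321-35 (4, 4 and 2 batch 1 libraries against 4). Filled points, Dnajc13 with Mel322-34 and Dnajb4 with Mel321-35, passed an adjusted p under 0.05, and the widest intervals belong to the low-count Dnaja4, Dnajb13, Dnajc12 and Dnajc28.

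In the cytosol and nucleus, 1 of 8 members passed against MGO.53, with Mel321-35, beside 0.041% of all genes. Dnajb4 (ENSMUSG00000028035) is a class B partner of cytosolic HSP70. Its level was 22.3, 24.7, 24.4 and 24.8 CPM in the MGO.53 libraries, replicates 1 to 4. With Mel321-35 it was 30.1 and 32.8 CPM in replicates 3 and 4, both above every other library, and 25.9 CPM in the batch 2 library, which is within the range of the other Mel antibodies. With Mel321-31 it was 24.9, 25.9, 26.9 and 26.6 CPM, and with Mel322-34 24.8, 24.7, 26.1 and 26.5 CPM. The Mel321-31 libraries did not overlap MGO.53 either, by a narrow margin, and those of Mel322-34 did.

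Dnajb4 thus rose with Mel321-35 by a log2 fold change of 0.39 ± 0.072 (SE), a fold of 1.31 with a 95% interval of 1.18 to 1.45 and an adjusted p of 0.0353 (edgeR). Its log2 fold change was 0.12 ± 0.060 with Mel321-31 (adjusted p = 0.289) and 0.087 ± 0.061 with Mel322-34 (adjusted p = 0.429). The Mel321-35 call rests on 2 libraries. It was lost without any 1 of the MGO.53 libraries (log2 fold change 0.35 to 0.41, adjusted p from 0.0842 to 0.142, edgeR). In each of those fits 0 genes in all were called, beside 6 in the main fit, so that loss is not particular to Dnajb4. It was also lost when the batch 2 library was added (0.30, adjusted p = 0.0757) and with the replicate number as a block (0.35, adjusted p = 0.108). The log2 fold change was 0.33 without Mel321-35 replicate 4 and 0.45 without replicate 3, each with 1 Mel321-35 library left. DESeq2 gave Dnajb4 no adjusted p in this comparison (log2 fold change 0.39 ± 0.078, unadjusted p = 5.58e-07).

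The Dnajb4 promoter was read at its annotated starts because heat shock factor, the activator of many chaperone genes, binds repeats of GAA and TTC. Of the 43 members, 36 had at least 1 window in the RefSeq table (GRCm38.p6, 250 bases before to 50 after a start), 49 windows in all. Dnajb4 has one window at chr3:152210034-152210333 and another at chr3:152193796-152194095, both on the minus strand. Dnaja1, the abundant cytosolic member that did not pass in any comparison, is shown beside it at the first of its 3 windows (chr4:40722218-40722517, plus strand). Capitals mark a match to TTCNNGAA or GAANNTTC, 2 facing heat shock repeats, searched in this form (each equals its own reverse complement, so both strands are covered).
Dnajb4 start 1: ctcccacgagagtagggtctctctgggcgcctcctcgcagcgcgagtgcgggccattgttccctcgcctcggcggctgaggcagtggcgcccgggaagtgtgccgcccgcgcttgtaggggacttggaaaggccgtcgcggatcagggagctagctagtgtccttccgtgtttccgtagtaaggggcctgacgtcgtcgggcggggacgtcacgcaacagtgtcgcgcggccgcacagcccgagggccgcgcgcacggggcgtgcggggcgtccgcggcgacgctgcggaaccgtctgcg
Dnajb4 start 2: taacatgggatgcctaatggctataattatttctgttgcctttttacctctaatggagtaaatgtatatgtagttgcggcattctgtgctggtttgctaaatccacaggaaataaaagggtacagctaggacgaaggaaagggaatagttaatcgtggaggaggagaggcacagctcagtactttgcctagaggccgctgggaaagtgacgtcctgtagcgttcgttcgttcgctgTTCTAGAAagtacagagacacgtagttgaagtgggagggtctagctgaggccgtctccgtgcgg
Dnaja1 start 1: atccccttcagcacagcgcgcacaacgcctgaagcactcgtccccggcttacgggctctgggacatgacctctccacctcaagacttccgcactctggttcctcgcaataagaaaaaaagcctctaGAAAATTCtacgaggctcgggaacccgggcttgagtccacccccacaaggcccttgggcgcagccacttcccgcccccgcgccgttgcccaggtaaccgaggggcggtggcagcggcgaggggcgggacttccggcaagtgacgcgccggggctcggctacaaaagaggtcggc
The second Dnajb4 window holds TTCTAGAA, beginning 14 bases before the start, and the first holds neither form. In the first Dnaja1 window GAAAATTC begins 124 bases before the start, and the other windows of Dnaja1 hold neither form. Neither form is rare: TTCNNGAA occurs in 8.52% and GAANNTTC in 7.86% of the 32851 windows in the table, and in 4 and 5 of the 49 DNAJ windows. The members with TTCNNGAA were Dnajb4, Dnajb6 and Dnajc10, and those with GAANNTTC were Dnaja1, Dnaja4, Dnajb6 and Dnajc27. The windows of the heat-inducible Dnajb1 hold neither form. A match is a string of letters and not evidence of binding, and a missing match is not evidence of its absence.

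None of the other cytosolic members passed with any antibody. Dnaja1 had 171.7 to 179.5 CPM with MGO.53, 179 to 186 with Mel321-31, 171 to 194 with Mel322-34 and 183 to 184 CPM with Mel321-35, and its log2 fold changes were 0.056 ± 0.037, 0.018 ± 0.038 and 0.059 ± 0.046 in the order Mel321-31, Mel322-34, Mel321-35. Dnajb1, whose transcript rises in the textbook heat shock response, had 52.5 to 58.2 CPM with MGO.53 and 52.4 to 58.4 CPM over the batch 1 libraries of the other 3 groups. Its 95% interval for Mel321-31 ran from 0.959-fold to 1.10-fold, and those for Mel322-34 and Mel321-35 from 0.941 to 1.08 and from 0.894 to 1.06. Dnaja2 (log2 fold changes 0.048, 0.044 and 0.085), the ubiquitin-binding Dnajb2 (-0.014, 0.018 and -0.061) and the aggregation suppressor Dnajb6 (0.061, 0.021 and 0.014) overlapped MGO.53 in every comparison. Dnaja4 had 0.448 to 1.73 CPM with MGO.53 and log2 fold changes of -0.59 ± 0.48, -0.42 ± 0.47 and 0.019 ± 0.57, and 44.1% of its exon bases are shared with Wdr61 on the other strand, so its reads may be split.

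**Figure D3:**
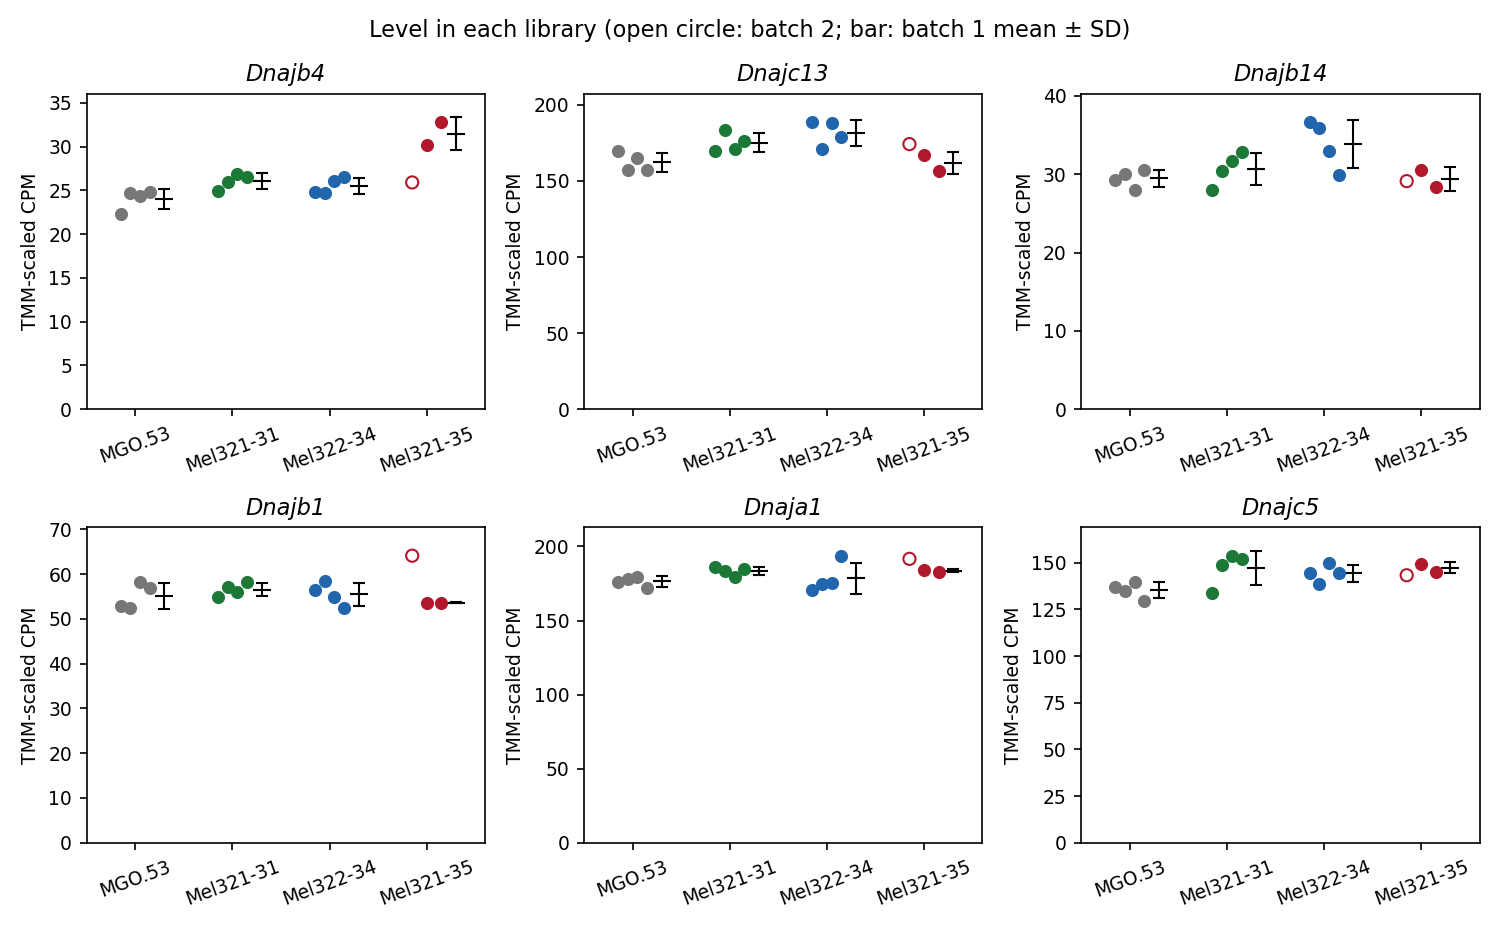
TMM-scaled CPM of 6 members in every library, with axes from 0, where filled points are batch 1, the open circle is the batch 2 library of Mel321-35, and bars give the batch 1 mean and SD (n = 4, 4, 4 and 2). Both batch 1 libraries of Mel321-35 stand above all others for Dnajb4, and the Mel322-34 libraries stand just above MGO.53 for Dnajc13.

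In the endoplasmic reticulum, 0 of 9 members passed with any of the 3 antibodies (edgeR, beside 3.53, 6.87 and 0.041% of all genes). Under another tool 1 did. Dnajb14 and Dnajb12 are membrane proteins whose J domains face the cytosol and which take part in the removal of misfolded membrane proteins. Dnajb14 had 29.3, 30.0, 27.9 and 30.6 CPM with MGO.53 and 36.6, 35.9, 32.9 and 29.9 CPM with Mel322-34. Of the Mel322-34 libraries 3 lay above every MGO.53 library and replicate 4 lay inside their range. Its log2 fold change was 0.20 ± 0.066 (adjusted p = 0.0574, edgeR). That adjusted p was 0.0391 in DESeq2 and 0.0233 without Mel322-34 replicate 4 (edgeR). All genes called in those fits numbered 1395 and 703, beside 1005 in the main fit. The longest transcript of Dnajb14 has 9477 bases. In edgeR, Dnajb14 did not pass with Mel322-34 either in the main fit or with the trend on transcript length removed. With Mel321-31 and Mel321-35 its log2 fold changes were 0.063 ± 0.066 and 0.0010 ± 0.081.

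Dnajb12 had lower estimates with each antibody. It had 69.6, 72.9, 64.5 and 70.0 CPM with MGO.53 and 64.8 and 59.8 CPM with Mel321-35 in batch 1, where 1 of the 2 values lay inside the MGO.53 range. Log2 fold changes were -0.10 ± 0.048, -0.065 ± 0.048 and -0.15 ± 0.059, with adjusted p of 0.258, 0.465 and 0.351 (edgeR). The luminal members did not pass. Dnajb11 (log2 fold changes 0.018, 0.00089 and 0.059), the disulfide reductase Dnajc10 (0.085, 0.033 and 0.065) and the BiP partner Dnajc3 (0.068, 0.068 and 0.051) had positive estimates with every antibody. Dnajb9, an inducible target of the unfolded protein response, had 27.4 to 34.3 CPM with MGO.53, and its log2 fold changes were 0.089 ± 0.069, 0.072 ± 0.070 and 0.065 ± 0.085.

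In the mitochondrion, 0 of 6 members passed with any antibody, beside 3.53, 6.87 and 0.041% of all genes. Medians of the log2 fold change were -0.035, -0.034 and -0.010. Dnaja3, the matrix partner of mitochondrial HSP70, had 64.8 to 71.8 CPM with MGO.53 and log2 fold changes of -0.019 ± 0.049, -0.00043 ± 0.049 and -0.0073 ± 0.060. Dnajc19 and Dnajc15 sit at the import motor of the inner membrane. Dnajc19 had log2 fold changes of -0.11 ± 0.072, -0.080 ± 0.073 and -0.013 ± 0.089, and Dnajc15 of -0.071 ± 0.065, -0.094 ± 0.065 and -0.080 ± 0.080. Dnajc28, with 1.31 to 1.73 CPM in MGO.53, had a log2 fold change of 0.25 ± 0.25 with Mel321-31, about the size of its standard error.

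Among members that work on ribosomes, splicing and chromatin, 0 of 6 passed with any antibody, beside 3.53, 6.87 and 0.041% of all genes. Dnajc9 had 83.7, 85.3, 87.3 and 88.2 CPM with MGO.53. With Mel321-35 it had 91.8 and 95.01 CPM in batch 1 and 105 CPM in the batch 2 library, all above MGO.53, but its log2 fold change of 0.12 ± 0.052 did not pass (adjusted p = 0.425, edgeR). With Mel322-34 it had 86.7, 95.5, 87.8 and 96.2 CPM and a log2 fold change of 0.088 ± 0.043 (adjusted p = 0.219). The ribosome-bound Dnajc2 (0.012, -0.016 and 0.069), the spliceosome-associated Dnajc8 (-0.081, -0.046 and 0.040) and Dnajc21, a factor in maturation of the large ribosomal subunit (-0.0082, -0.068 and -0.039), had small log2 fold changes that did not pass.

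In vesicle traffic, 1 of 3 tested members passed against MGO.53, with Mel322-34, beside 6.87% of all genes. Dnajc13 (ENSMUSG00000032560) is the counterpart of the nematode protein RME-8 and acts with HSP70 in sorting at endosomes. Its level was 169.9, 157, 165 and 157 CPM with MGO.53 and 189, 171, 188 and 179 CPM with Mel322-34. The lowest Mel322-34 library lay just above the highest MGO.53 library (171.0 and 169.9 CPM). Its log2 fold change was 0.16 ± 0.040, a fold of 1.12 with a 95% interval of 1.06 to 1.18 (adjusted p = 0.0155, edgeR). With Mel321-31 it had 169.5, 184, 171 and 176 CPM and a log2 fold change of 0.11 ± 0.040 (adjusted p = 0.130), and with Mel321-35 167 and 157 CPM in batch 1, 174 CPM in batch 2 and a log2 fold change of -0.0041 ± 0.049. The Mel322-34 call was lost without Mel322-34 replicate 3 (adjusted p = 0.0708), MGO.53 replicate 2 (0.0705) or MGO.53 replicate 4 (0.0605), where the log2 fold change was 0.14 to 0.15. All genes called in those fits numbered 327, 397 and 504, beside 1005 in the main fit.

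Dnajc13 has a transcript of 8012 bases, and in these libraries the fold change of a gene went with its length. Over the 10172 genes with an average log2 CPM above 2, Spearman's rho between log2 fold change and transcript length was 0.381 with Mel321-31, 0.512 with Mel322-34 and 0.122 with Mel321-35, and over the 35 members above that level it was 0.302, 0.511 and -0.151. These are descriptions across genes of the same libraries, and genes are not replicates. Among the 1072 genes within 1.25 times the length of Dnajc13 the median change with Mel322-34 was 0.10 in log2, and 18.6% of them were called higher. With the trend on length removed from each library, the Dnajc13 log2 fold change was 0.062 ± 0.034 (adjusted p = 0.368) and the call was lost, while Dnajc9 passed (0.15 ± 0.042, adjusted p = 0.0372). Dnajb4, with 4913 bases, kept its call with Mel321-35 (0.37 ± 0.071, adjusted p = 0.0218). The Dnajc13 promoter window (RefSeq, GRCm38.p6, chr9:104262881-104263180, minus strand) is given for comparison with those of Dnajb4 and has no match to either heat shock form.
Dnajc13: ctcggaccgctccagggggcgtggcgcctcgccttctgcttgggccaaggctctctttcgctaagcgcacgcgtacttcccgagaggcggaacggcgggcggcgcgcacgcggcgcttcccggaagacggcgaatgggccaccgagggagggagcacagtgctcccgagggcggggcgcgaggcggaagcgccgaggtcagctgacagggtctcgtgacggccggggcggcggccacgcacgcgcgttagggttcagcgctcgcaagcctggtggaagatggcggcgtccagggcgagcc

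**Figure D4:**
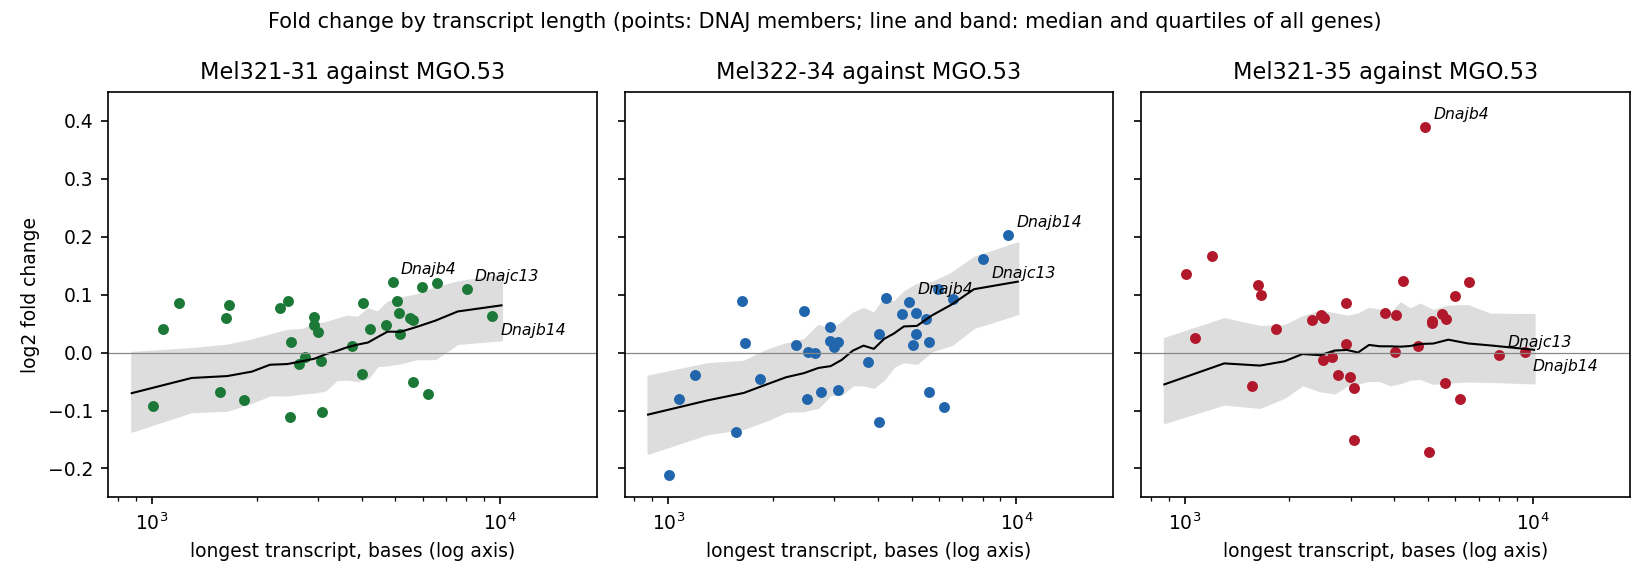
Log2 fold change against MGO.53 by the length of the longest annotated transcript, on a log axis, where points are the 35 members with an average log2 CPM above 2, and the line and band give the median and quartiles of all genes above that level in 20 bins. With Mel322-34 the band climbs with length and Dnajc13 lies near its upper edge, while Dnajb4 lies far above the band with Mel321-35.

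Dnajc5, the cysteine string protein that guards fusion proteins on secretory vesicles, had positive estimates with all 3 antibodies and did not pass with any. It had 137, 135, 139.8 and 129.5 CPM with MGO.53 and 134, 149, 154 and 152 CPM with Mel321-31. Replicate 1 of Mel321-31 alone lay inside the MGO.53 range. Its log2 fold change there was 0.12 ± 0.042 (adjusted p = 0.106, edgeR), and without that library it was 0.16 (adjusted p = 0.00624). Leaving that library out also raised the number of all genes called from 517 to 1238, so the gain is not particular to Dnajc5. With Mel322-34 it was 0.093 ± 0.042 (adjusted p = 0.181), and with Mel321-35 0.12 ± 0.051 (adjusted p = 0.384). Dnajc27, which joins a J domain to a small GTPase of the Rab type, had log2 fold changes of 0.047, 0.066 and 0.012.

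Of the remaining members, none passed. Dnajc7 had 178 to 181 CPM with MGO.53 and 186 to 195 CPM with Mel321-31, groups that did not overlap, and a log2 fold change of 0.077 ± 0.033 (adjusted p = 0.203, edgeR). Dnajc12, a co-chaperone of aromatic amino acid hydroxylases, had log2 fold changes of -0.29 ± 0.18, -0.40 ± 0.18 and 0.10 ± 0.22, at 2.73 to 4.34 CPM with MGO.53. Dnajb13 had 0.272 to 0.568 CPM with MGO.53 and log2 fold changes of 0.31 ± 0.47, -0.37 ± 0.49 and -0.85 ± 0.64. Its exons share 11.2% of their bases with Ucp2 on the other strand. Members whose libraries lay wholly above MGO.53 numbered 2 with Mel321-31 (Dnajb4 and Dnajc7), 1 with Mel322-34 (Dnajc13) and 6 with Mel321-35 (Dnaja1, Dnajb4, Dnajc3, Dnajc5, Dnajc7 and Dnajc9), beside 4.61, 7.03 and 10.6% of all genes. Members wholly below MGO.53 numbered 0 in each comparison, beside 5.38, 5.92 and 9.83%.

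The antibodies were also set against each other, the direct test of whether their effects differ. In the comparison of Mel321-31 with Mel322-34, 0 members passed (0.0205% of all genes, edgeR), with 1 at an unadjusted p under 0.05 (6.96% of all genes), and DESeq2 and limma-voom called 0 with 2 each. Between Mel321-31 and Mel321-35, 0 passed (0.103% of all genes), with 2 at an unadjusted p under 0.05 (8.06% of all genes), and the other tools called 0 with 2 and 3. Between Mel322-34 and Mel321-35, 0 passed (0.26% of all genes), with 6 at an unadjusted p under 0.05 (9.61% of all genes). There DESeq2 called 1, Dnajb4, with 5 at an unadjusted p under 0.05, and limma-voom called 0 with 6. Dnajb4 was lower with Mel322-34 than with Mel321-35 by a log2 value of -0.30 ± 0.071, with groups that did not overlap, at an adjusted p of 0.0602 in edgeR and 0.0129 in DESeq2. Against Mel321-31 the value was -0.27 ± 0.071 (Mel321-31 minus Mel321-35, adjusted p = 0.198). Dnajc13 was 0.17 ± 0.049 higher in log2 with Mel322-34 than with Mel321-35 (adjusted p = 0.178), and Mel321-31 minus Mel322-34 was -0.052 ± 0.040. In edgeR with TMM scaling, neither call against MGO.53 is shown to differ between antibodies. With the trend on transcript length removed, Dnajb4 did pass between Mel322-34 and Mel321-35 (-0.33, adjusted p = 0.0373).

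In the batch 2 library of Mel321-35, 10 of 39 members lay above the range of all batch 1 libraries and 2 below it, beside 14.8 and 14.1% of all genes. Those above included Dnaja2 at 276 CPM, Dnajb11 at 272 CPM, Dnajc7 at 206 CPM, Dnajc9 at 105 CPM and Dnajb1 at 64.1 CPM. The batch 1 maxima of these 5 were 265, 256, 195, 96.2 and 58.4 CPM. Those below were Dnaja4 and Dnajc15, at 0.195 and 24.6 CPM. Dnajb4 lay inside the batch 1 range, at 25.9 CPM, and below both batch 1 libraries of its own antibody.

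The HSP70 machinery around the family was read from lists of its proteins. Of 12 tested HSP70 proteins, 1 rose with Mel321-31, beside 1.41% of all genes called higher, and the same 1 rose with Mel322-34, beside 4.03%. With Mel321-35 none did, 0 of 12 in edgeR beside 0.041% of all genes called, with 4 below an unadjusted p of 0.05 (10.5% of all genes). The riser was Hspa13, a microsomal HSP70 relative, with 65.9 CPM in MGO.53 and 74.6 and 76.1 CPM with Mel321-31 and Mel322-34 (log2 fold changes 0.18 ± 0.048 and 0.21 ± 0.048, adjusted p = 0.0329 and 0.0102). The main partners did not pass: the log2 fold changes of cytosolic Hspa8 were 0.0090, -0.055 and -0.10, of luminal Hspa5 0.037, -0.041 and 0.014, of mitochondrial Hspa9 0.056, 0.033 and 0.080, and of the HSP110 protein Hsph1 0.016, 0.043 and 0.0032. The largest estimate of the 12 with Mel321-35 was that of the low-count Hspa1b (2.98 CPM with MGO.53, 4.16 CPM with Mel321-35). Its log2 fold changes were -0.036 ± 0.18, 0.18 ± 0.18 and 0.49 ± 0.22 (adjusted p = 0.949, 0.631 and 0.428, edgeR). The list held 15 HSP70 genes, of which 12 were tested.

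Of 10 nucleotide exchange factors, 0 passed in edgeR with Mel321-31 or Mel321-35 (1 and 2 at an unadjusted p under 0.05, beside 17.8 and 10.5% of all genes). With Mel322-34, 3 of the 10 fell, beside 2.84% of all genes called lower. They were the cytosolic Bag3 (log2 fold change -0.15 ± 0.046, adjusted p = 0.0432) and Hspbp1 (-0.17 ± 0.050, 0.0411), and Grpel1 of the mitochondrial matrix (-0.14 ± 0.042, 0.0465). Of 13 genes of heat shock factor and its targets, 1 fell with Mel322-34, the factor Hsf1 itself (-0.16 ± 0.039, adjusted p = 0.0146), beside 2.84% of all genes called lower. None passed with Mel321-31 or Mel321-35 (3 and 2 of 13 at an unadjusted p under 0.05 in edgeR, beside 17.8 and 10.5% of all genes). Of 16 genes of the endoplasmic reticulum stress response, 0 passed with any antibody (edgeR, beside 3.53, 6.87 and 0.041% of all genes). At an unadjusted p under 0.05 there were 4, 6 and 1 of the 16, beside 17.8, 22.2 and 10.5% of all genes. The 4 tested J-domain proteins with other names gave 0 calls, with 0, 2 and 1 at an unadjusted p under 0.05 beside the same shares of all genes. Median log2 fold changes with Mel322-34 were 0.038 for the HSP70 proteins, -0.056 for the exchange factors, -0.048 for heat shock factor and its targets and -0.0098 for the stress response, beside -0.0011 for all genes. The calls of Hspa13, Bag3, Hspbp1, Grpel1 and Hsf1 were not tested with the trend on transcript length removed or with a library left out. With that trend removed, 411 genes in all were called with Mel322-34, beside 1005 with it in place (edgeR).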

How the data were processed

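Polyadenylated RNA of B16-F10 cells was sequenced from strand-specific libraries, per the labels' protocols, and none of the sources used here says whether counting used the strand or which build it used. The tools named, per the submitters' processing notes, were STAR 2.7.10a, HTSeq 2.01 and DESeq2. The authors deposited raw counts per gene, which were tested, and a normalised signal, the count divided by 1 size factor per library, which was only checked. The test of these counts was that of edgeR 4.0.16 (R 4.3.3, TMM scaling, expression filter by group, quasi-likelihood F-test, 4 groups and 14 libraries in 1 fit, 10 residual degrees of freedom, Benjamini-Hochberg adjustment over 14633 genes, threshold 0.05). The script was tested on simulated data. The standard error is the absolute log2 fold change divided by the square root of F. Alternatives used DESeq2 1.42.0 and limma-voom (limma 3.58.1). Lengths and exon overlaps came from GENCODE M21, where all 43 members were found by identifier. Of the members, 6 share over 10% of their exon bases with another gene, Dnajb4 shares none, and pseudogene copies of Dnaja1, Dnajb6 and Dnajc19 may take or give reads. The labels call replicates biological but name no separate cultures, so a p-value measures only how these samples vary, which may be technical. Members and lists were chosen with earlier results of these data known. Named were called members, a fixed set of representatives per location, and the 3 largest changes of each comparison, and other members named were picked after their values were seen.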

Additional observations from a re-analysis of the deposited data

Results flagged for a closer look

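Of 81 groups of 4 libraries looked at, 4 held a library whose gap to the nearest other exceeded the 95% critical value of Dixon's test, and chance flags about 1 in 20 groups. Dnajc10 had 177 CPM in Mel321-31 replicate 2, where the other 3 libraries had 183 to 184 CPM. Dnajb13 had 0.0616 CPM in Mel322-34 replicate 2, against 0.438 to 0.455 CPM in the others, a low-count gene. Dnaja2 had 257 CPM in MGO.53 replicate 3, against 240.0 to 241 CPM. Dnajc12 had 4.34 CPM in MGO.53 replicate 2, the library with the fewest counts, against 2.73 to 2.95 CPM. No member that passed against MGO.53 was among them.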

How the results depend on the processing

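Of 2462 values of named members under alternatives, 2444 stayed on the same side of the threshold, 11 lost a call, 7 gained one and 0 of the called values changed sign, while 177 uncalled values did. Of the 156 results behind these values, only 2 were called in the main fit, so most values had no call to lose. All the lost calls were of these 2. Dnajc13 with Mel322-34 kept its call in 5 of 8 fits with a library left out and in 8 of 9 other alternatives. Dnajb4 with Mel321-35 kept its call in 6 of 8 alternatives with no library left out. Values with no adjusted p were not counted. The number of members called with Mel322-34 against MGO.53 became 2, with Dnajb14 added to Dnajc13, under DESeq2 and with at least 1 CPM required in every library of a group. Under DESeq2, 0 were called with Mel321-35 against MGO.53, where 21 of 39 members, Dnajb4 among them, had no adjusted p (NA, Dnajb4 unadjusted p = 5.58e-07), and 1, Dnajb4, between Mel322-34 and Mel321-35. The last count was also 1 with the length trend removed (Dnajb4 log2 -0.33, adjusted p = 0.0373). With 15 libraries and no batch term, 0 were called with Mel321-35 against MGO.53. With each library left out in turn the count ran from 0 to 1 for Mel321-31, from 0 to 2 for Mel322-34 and from 0 to 1 for Mel321-35 against MGO.53, and was 0 between antibodies. With 1 Mel321-35 library left, it was assumed to vary like the other groups.

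Replicate numbers showed no clear pairing of the libraries. Deviations of 18 same-numbered pairs correlated at -0.0923 to 0.0899, and those of 54 other pairs at -0.112 to 0.0912. Of 14 libraries, 5 correlated best with their own number. Values this weak do not exclude a pairing. With the replicate number as a block, 636 and 1209 of all genes were called with Mel321-31 and Mel322-34 against MGO.53, beside 517 and 1005 without it. Under that block, 0 members were called with Mel321-35 against MGO.53 (Dnajb4 0.35, adjusted p = 0.108, edgeR), and Dnajc13 kept its call with Mel322-34.

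Counts over all genes varied more. They ran from 91 to 1238 for Mel321-31, 327 to 1395 for Mel322-34 and 0 to 128 for Mel321-35 against MGO.53 over all alternatives, beside 517, 1005 and 6, and from 0 to 10 between Mel321-31 and Mel322-34, 0 to 45 between Mel321-31 and Mel321-35 and 0 to 146 between Mel322-34 and Mel321-35, beside 3, 15 and 38. Depth limits Dnaja4, Dnajb13, Dnajc12 and Dnajc28, whose intervals reach beyond a 1.25-fold change in every comparison with MGO.53.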
